A study of Homo sapiens with 16 samples.

Results

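CRYBA2, ENTPD3, PTGES, SLC16A4, IGDCC4 and LRRC15 are 6 human genes, none of them a histone gene, whose transcripts read higher in SAOS cells given the retinoblastoma protein RB than in cells without it. They were picked from 19775 measured genes for large increases with RB on these same arrays, so their RB differences are given as a description, with no test. On the array they have 9 probe sets that carry 1 of these symbols alone, with a pair each for ENTPD3, PTGES and LRRC15. The measurement was RNA hybridised to 16 Affymetrix arrays, and all levels are log2 signals, on which a difference of 1 is a doubling.

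SAOS is an established human osteosarcoma line without functional RB. RNA came from 4 groups of 4 arrays: cells that received both human RB and mouse SMYD2 by transient transfection, cells given human RB alone, cells given mouse SMYD2 alone, and untransfected control cells. SMYD2 is a lysine methyltransferase that can methylate RB, and the design asks what it does to the response to RB. The labels name no empty-vector arm, so what transfection itself does is part of every difference from control, while RB plus SMYD2 against SMYD2 compares transfected cells. The arrays of each group are numbered 1, 3, 4 and 5. Whether they stand for separate cultures is not stated, so a p-value here reflects the spread among these arrays alone and may be technical. In bulk RNA, a change in a share of the cells and a change in RNA per cell cannot be told apart.

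RB binds the E2F transcription factors and holds back genes of S phase and mitosis, and when it is restored to RB-deficient osteosarcoma cells they leave the cell cycle and flatten. In bone cells RB also works with RUNX2, the transcription factor of the osteoblast lineage. The 6 genes belong to none of the cell cycle gene families and have unlike products. CRYBA2 is a beta-crystallin, a structural protein of the eye lens. ENTPD3 is an ectonucleotidase, which splits phosphate from nucleotides outside the cell. PTGES is the microsomal synthase that makes prostaglandin E from the product of the cyclooxygenases. SLC16A4 belongs to the monocarboxylate carriers of the plasma membrane, and its own substrate is poorly known. IGDCC4 is an immunoglobulin-like transmembrane protein related to the netrin receptor DCC. LRRC15 is a leucine-rich repeat membrane protein found on activated fibroblasts and on osteosarcoma cells, and TGF-beta is known to induce it in fibroblasts.

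The stretches of 250 bases before the annotated starts were searched for short words, and their G and C content was read. All 6 genes matched a promoter in RefSeq (GRCh38.p14), and 4 of them are printed from 5′ to 3′ on the strand of the gene: CRYBA2 and SLC16A4 because they hold an E2F word, PTGES for its pair of CHR words and LRRC15 for its AP-1 word. CRYBA2 lies at chr2:218993423-218993672, SLC16A4 at chr1:110391027-110391276, PTGES at chr9:129753043-129753292 and LRRC15 at chr3:194369744-194369993, all on the minus strand. Capitals mark every match to a searched word on either strand.
CRYBA2: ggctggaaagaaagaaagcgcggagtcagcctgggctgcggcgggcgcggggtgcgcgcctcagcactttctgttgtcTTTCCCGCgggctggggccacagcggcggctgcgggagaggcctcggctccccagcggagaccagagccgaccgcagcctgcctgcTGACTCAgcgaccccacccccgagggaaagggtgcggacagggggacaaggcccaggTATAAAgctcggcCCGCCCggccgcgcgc
SLC16A4: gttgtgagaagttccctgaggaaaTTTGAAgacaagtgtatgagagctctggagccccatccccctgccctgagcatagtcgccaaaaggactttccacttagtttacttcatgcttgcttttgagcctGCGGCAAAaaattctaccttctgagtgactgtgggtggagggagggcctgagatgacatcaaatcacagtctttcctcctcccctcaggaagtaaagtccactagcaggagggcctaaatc
PTGES: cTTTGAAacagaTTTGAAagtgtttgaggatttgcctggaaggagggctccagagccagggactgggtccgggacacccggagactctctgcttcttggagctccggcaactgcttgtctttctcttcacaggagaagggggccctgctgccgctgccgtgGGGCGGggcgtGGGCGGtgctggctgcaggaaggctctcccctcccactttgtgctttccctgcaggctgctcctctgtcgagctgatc
LRRC15: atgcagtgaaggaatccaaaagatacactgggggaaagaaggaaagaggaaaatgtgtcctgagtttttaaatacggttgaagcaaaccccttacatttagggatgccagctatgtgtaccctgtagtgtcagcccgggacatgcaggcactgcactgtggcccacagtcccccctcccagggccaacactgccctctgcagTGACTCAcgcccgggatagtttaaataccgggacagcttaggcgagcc
The words searched on both strands were TTTCCCGC, TTTGGCGC, TTTCGCGC and TTTGCCGC for E2F, TTTGAA for the cell cycle element CHR, CCAAT for the CCAAT box, TATAAA for the TATA box, GGGCGG for the GC box, TGANTCA for AP-1 and TGTGGT for RUNX. The E2F, CHR and AP-1 words overlapped no other word in these stretches.

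CRYBA2 held TTTCCCGC from 172 to 165 bases before its start, and SLC16A4 held TTTGCCGC on the opposite strand from 121 to 114. Any of the E2F words occurred in 2.79% of 35114 promoters of the same length. PTGES had TTTGAA from 249 to 244 and from 238 to 233 bases before its start and SLC16A4 had it from 226 to 221, against 13.3% of all promoters. The AP-1 word occurred in CRYBA2 from 86 to 80 and in LRRC15 from 48 to 42 bases before the start, against 6.57% of all promoters. CRYBA2 was the only 1 of the 6 with TATAAA, from 29 to 24 bases before its start, against 10.7%. The GC box occurred in CRYBA2, ENTPD3, PTGES and IGDCC4, against 42.6%. Neither CCAAT, found in 32% of all promoters, nor TGTGGT, found in 11%, was in any of the 6. The G and C content ran from 49.6% in SLC16A4 to 85.6% in IGDCC4, beside a median of 58% over all promoters. A match of letters is a description and not a binding site.

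The labels were checked on RB1, on E2F target genes and on osteoblast markers. The brighter RB1 probe set (211540_s_at) read 7.90, 7.90, 9.25 and 9.62 with RB plus SMYD2, 7.40, 7.43, 8.10 and 7.87 with RB, 6.89, 6.59, 6.98 and 6.92 with SMYD2 and 6.24, 6.49, 6.27 and 6.93 in control (arrays 1, 3, 4 and 5 in each group). Every array given RB lay above every array without it, so the RB label was borne out. The other RB1 probe set was dim on every array, from 3.33 to 3.58. The brightest human SMYD2 probe set averaged 10.18 ± 0.02 with RB plus SMYD2, 10.05 ± 0.14 with RB, 10.28 ± 0.07 with SMYD2 and 10.16 ± 0.05 in control (SD, n = 4 each). The construct carried mouse SMYD2, which probes for the human gene may miss, so these readings check nothing.

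Of 19 measured genes that RB and E2F are known to repress, 13 fell in RB against control, with a median difference of -0.60, and 18 fell in RB plus SMYD2 against SMYD2, with a median of -0.74 (limma, adjusted p under 0.05 over all genes). The background shares of genes called lower were 1.71% and 4.25%, and the medians over all genes were 0.01 in both. In these comparisons TK1, a thymidine kinase, fell by 0.68 ± 0.14 and 0.95 ± 0.14 (SE), E2F7, a repressor E2F, fell by 0.70 ± 0.13 and 0.99 ± 0.13, and E2F8, its relative, fell by 0.69 ± 0.15 and 0.99 ± 0.15. MCM10, which helps to start replication forks, differed by -0.70 ± 0.26 (adjusted p = 0.205, and 0.0174 with the array number as a block) and fell by 1.01 ± 0.26 (adjusted p = 0.0234). With 1 array left out, 7 (without control array 4) to 16 and 15 to 19 of the 19 genes fell, and without the arrays numbered 1 it was 17 and 19. The choice of probe set mattered too. In RB against control TK1, CCNA2, CCNE2 and TYMS missed the threshold with the probe set of largest variance and with the mean of a gene's probe sets. RRM2 also missed it with the largest variance and RBL1 with the mean, while MCM4 passed with the mean. With the array number as a block 18 and 19 fell, beside 3.47% and 7.6% of all genes, and CDK1 (adjusted p = 0.0416), MCM4 (0.000266), MCM5 (0.00179) and MCM6 (0.019) then passed in RB against control. The osteoblast markers with a value (6 of 7) had a mean signal of 10.9 to 11.4 with RB plus SMYD2, 10.9 to 11.4 with RB, 10.7 to 11.1 with SMYD2 and 10.7 to 11.2 in control, led by COL1A1, IBSP, RUNX2 and ALPL, while SPP1 was dim, with group means of 5.31 to 6.13. The lens markers CRYAA, BFSP2, MIP and LIM2 had group means of 5.01 to 5.74, beside array medians of 5.59 to 5.64, while BFSP1, also listed as a lens marker, lay between 7.75 and 7.93, and the mean of the 5 ran from 5.77 to 6.03 per array over all 4 groups. Epithelial markers averaged 6.80 to 7.05, with KRT18 at 9.60 to 9.84 and EPCAM at 9.33 to 9.45 in group means, and CDH1 and KRT19 at 4.06 to 4.93. Neuronal markers averaged 6.04 to 6.48, leukocyte markers 4.62 to 4.80 and endothelial markers 5.17 to 5.45 per array.

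RB against control gave the members the following places among all 19775 genes by size of difference. CRYBA2 was rank 1, ENTPD3 rank 4, PTGES rank 8, SLC16A4 rank 10, IGDCC4 rank 11 and LRRC15 rank 26. The 6 are therefore not the 6 strongest: 20 other genes lay above LRRC15, of which 4 are histone genes, 1 is RB1 and 15 are neither. Just above LRRC15, at 0.93, stood COL1A2 (0.94) and TP53INP1 (0.95), followed by SERPINI1 (0.98), HTRA1 (0.98) and DNAI3 (0.99). Just below it stood INHBB (0.93), PIK3CD (0.92), TARS3 (0.91), CFD (0.91) and SORBS2 (0.90). INHBB encodes an activin subunit, COL1A2 a chain of type I collagen and HTRA1 a secreted protease. Across all genes limma called 1.24% higher in RB against control and 2.94% higher in RB plus SMYD2 against SMYD2; the choice of members used these comparisons, so nothing is read from these shares for the 6.

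CRYBA2 (220136_s_at) read 7.71, 6.58, 7.16 and 6.80 with RB plus SMYD2 and 7.82, 6.45, 6.81 and 6.73 with RB, on arrays 1, 3, 4 and 5. It read 6.81, 5.17, 5.03 and 5.04 with SMYD2 and 5.97, 4.70, 5.30 and 4.77 in control. Array 1 was the highest in each group, and SMYD2 array 1 reached into the range of the RB arrays, while all 4 RB arrays lay above all 4 control arrays. The mean was 6.95 ± 0.60 with RB against 5.19 ± 0.59 in control (SD, n = 4), a difference of 1.77 ± 0.39 (SE). Of the arrays without RB, 3 of 4 in each group lay below the array medians, where signals may be background, so no fold is given. RB plus SMYD2 exceeded SMYD2 by 1.55 ± 0.39, with overlap, and by 1.98 ± 0.33 without SMYD2 array 1. Of the 8 arrays with RB, 4 lay above all 8 without it.

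ENTPD3 (206191_at) showed the same high array 1. It read 11.19, 10.23, 10.65 and 10.72 with RB plus SMYD2 and 10.86, 10.21, 10.39 and 10.32 with RB. It read 10.24, 8.88, 8.81 and 8.94 with SMYD2 and 9.95, 8.99, 8.58 and 8.75 in control. SMYD2 array 1, at 10.24, lay just above the lowest arrays with RB, and all RB arrays lay above all control arrays. RB exceeded control by 1.38 ± 0.31 (2.60-fold) and RB plus SMYD2 exceeded SMYD2 by 1.48 ± 0.31. The difference by array number ran from 0.90 on arrays 1 to 1.81 on arrays 4 in RB against control.

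The other ENTPD3 probe set (1555118_at) was far dimmer, at 5.60, 5.21, 5.23 and 5.26 with RB plus SMYD2, 5.62, 5.06, 5.11 and 5.26 with RB, 5.59, 4.73, 4.60 and 4.90 with SMYD2 and 5.27, 4.60, 4.59 and 4.50 in control. The groups overlapped through the arrays numbered 1, and the sign was the same as in the bright set in 4 of 4 same-numbered pairs of both RB comparisons. On arrays 1 of RB plus SMYD2 against SMYD2, however, the dim set differed by only 0.004, against 0.95 in the bright set. The mean difference of the dim set was smaller, 0.52 ± 0.20 in RB against control and 0.37 ± 0.20 in RB plus SMYD2 against SMYD2. RMA gives no detection call, and signals this low may be background.

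PTGES (210367_s_at) varied little within groups. It read 9.93, 9.39, 9.57 and 9.67 with RB plus SMYD2 and 9.60, 9.50, 9.63 and 9.32 with RB. It read 8.46, 8.30, 8.24 and 8.13 with SMYD2 and 8.59, 8.24, 8.16 and 8.17 in control. All 8 arrays with RB lay above all 8 without it, with a gap of 0.74 between the lowest and the highest. RB exceeded control by 1.22 ± 0.12 (2.33-fold), and RB plus SMYD2 exceeded SMYD2 by 1.36 ± 0.12 (2.56-fold).

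The second PTGES probe set (207388_s_at) repeated the separation at a lower signal. It read 8.65, 8.19, 8.34 and 8.62 with RB plus SMYD2, 8.51, 8.36, 8.52 and 8.31 with RB, 7.32, 7.53, 7.68 and 7.26 with SMYD2 and 7.64, 7.70, 7.65 and 7.62 in control. Every array with RB lay above every array without it, and the differences were 0.77 ± 0.11 in RB against control and 1.00 ± 0.11 in RB plus SMYD2 against SMYD2.

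SLC16A4 (205234_at) was dim, with a mean over the 16 arrays below the median gene. It read 6.76, 6.68, 6.28 and 6.55 with RB plus SMYD2 and 6.83, 6.80, 6.12 and 6.10 with RB. It read 5.17, 5.27, 4.39 and 4.64 with SMYD2 and 5.44, 5.35, 5.45 and 4.75 in control. The arrays with RB stood clear of those without it by 0.65, and within the RB group arrays 1 and 3 lay above arrays 4 and 5. RB exceeded control by 1.21 ± 0.22, while RB plus SMYD2 exceeded SMYD2 by 1.70 ± 0.22. All 8 arrays without RB lay below the array medians, where signals may be background, so no fold is given.

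IGDCC4 (227870_at) was even among the arrays with RB and uneven among those without it. It read 8.55, 8.41, 8.67 and 8.80 with RB plus SMYD2 and 8.44, 8.31, 8.46 and 8.48 with RB. It read 7.84, 7.58, 6.84 and 6.88 with SMYD2 and 7.94, 7.54, 6.55 and 6.82 in control. Without RB, arrays 1 and 3 lay above arrays 4 and 5 in both groups, and all arrays with RB lay above them by at least 0.37. RB exceeded control by 1.21 ± 0.26 (2.31-fold) and RB plus SMYD2 exceeded SMYD2 by 1.32 ± 0.26. Averaged over the groups with and without SMYD2, the RB difference was 0.61 on arrays 1, 0.80 on arrays 3, 1.87 on arrays 4 and 1.79 on arrays 5.

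LRRC15 (213909_at) was bright in every array. It read 11.93, 12.18, 12.02 and 12.18 with RB plus SMYD2 and 12.03, 12.21, 12.15 and 12.06 with RB. It read 10.37, 11.48, 10.60 and 10.77 with SMYD2, and in control 11.16 on array 1, 11.63 on array 3 and 10.94 on array 5, with array 4 just above array 5. Here array 3, not array 1, was the highest without RB, and SMYD2 array 1 was the lowest of all 16. The arrays with RB lay above the others by at least 0.29 and spanned 0.28 in all, against a span of 1.26 without RB. RB exceeded control by 0.93 ± 0.18 (1.91-fold), and RB plus SMYD2 exceeded SMYD2 by 1.27 ± 0.18 (2.41-fold).

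The dimmer LRRC15 probe set (1552960_at) did not follow. It lay between 5.77 and 6.04 with RB plus SMYD2, 5.75 and 5.89 with RB, 5.69 and 5.90 with SMYD2, and 5.59 and 5.96 in control, so all 4 groups overlapped near the array median. Its differences were -0.01 ± 0.09 in RB against control and 0.14 ± 0.09 in RB plus SMYD2 against SMYD2. Both sets therefore disagree, and the LRRC15 values rest on the bright set.

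**Figure D1:**
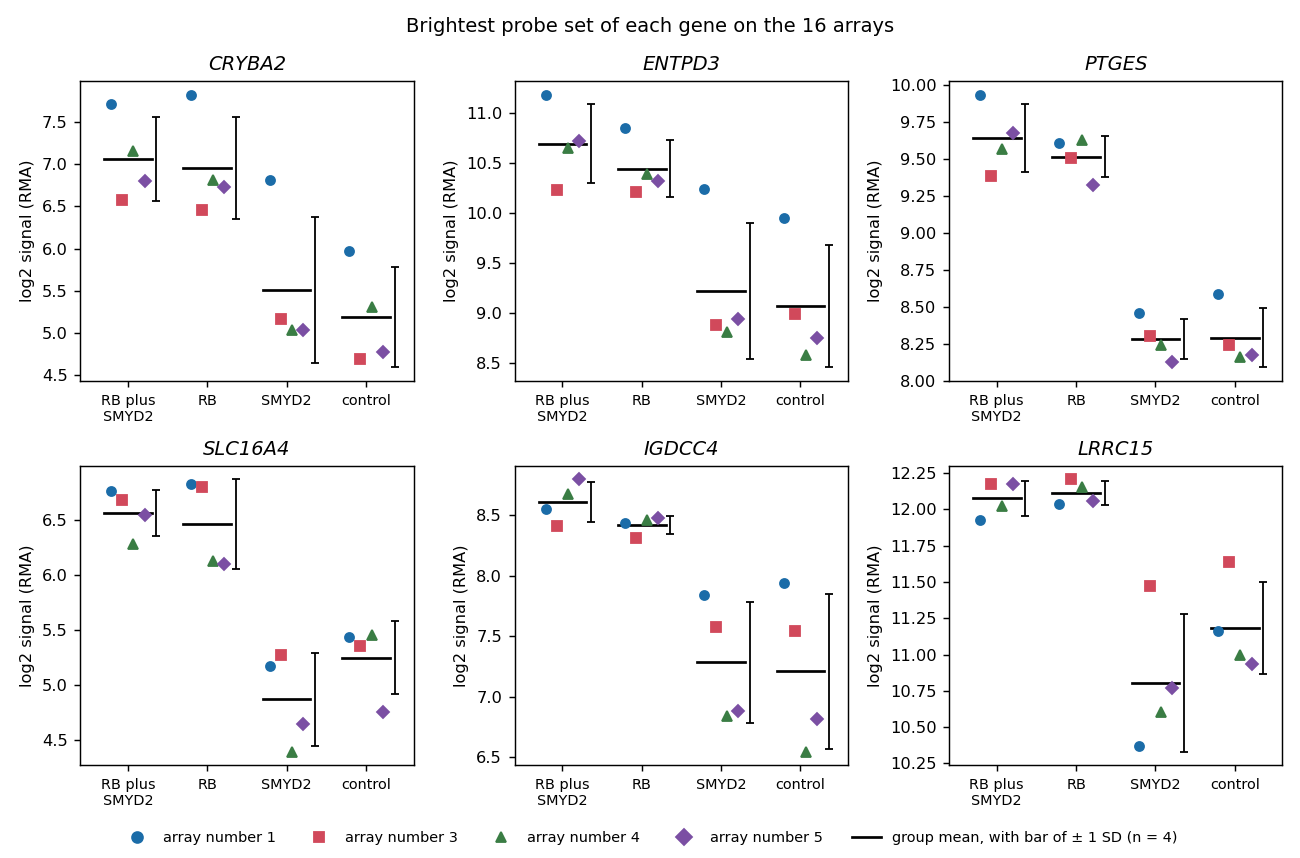
Log2 signal of the brightest probe set of each gene on the 16 arrays, grouped as RB plus SMYD2, RB, SMYD2 and control, with marker shapes for the array number, a line at the group mean and a bar of 1 SD (n = 4). For PTGES, SLC16A4, IGDCC4 and LRRC15 all 8 arrays with RB lie above all 8 without it, and for CRYBA2 and ENTPD3 SMYD2 array 1 lies among the RB arrays; each panel has its own axis, since levels of different probe sets are not comparable.

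**Figure D2:**
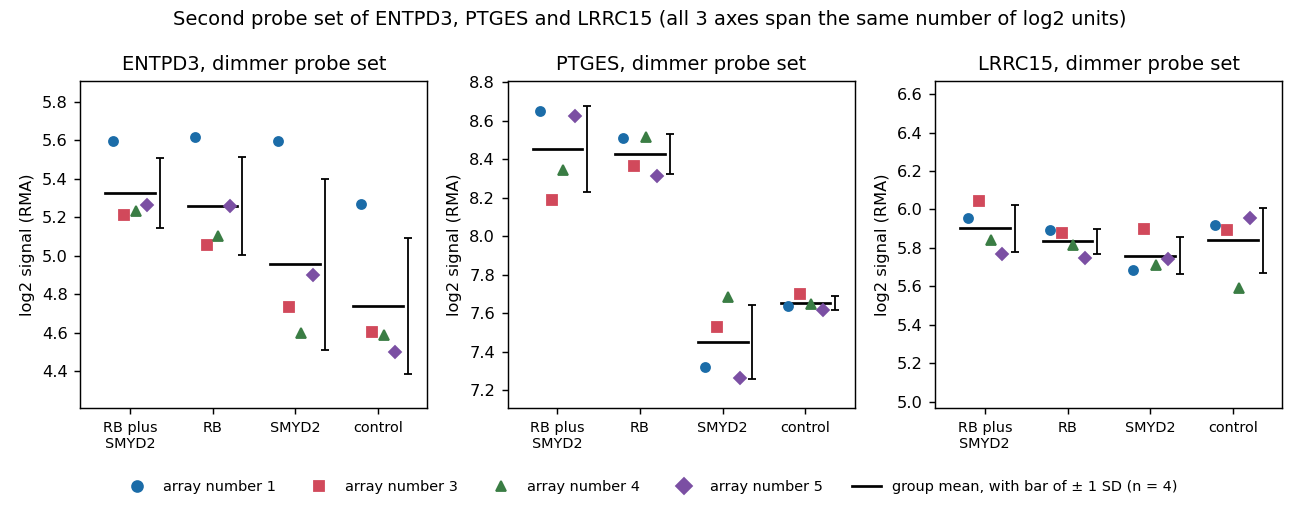
Log2 signal of the dimmer probe set of ENTPD3, PTGES and LRRC15 on the same 16 arrays, with axes of equal length, group means and bars of 1 SD (n = 4). The PTGES set separates the arrays with RB from those without, the ENTPD3 set overlaps through the arrays numbered 1, and the LRRC15 set stays between 5.59 and 6.04.

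For PTGES, SLC16A4, IGDCC4 and LRRC15, 4 of the 6 genes, all 8 arrays with RB lay above all 8 without it; 1.64% of all genes did so. Without the arrays numbered 1, all 6 arrays with RB lay above all 6 without it for 6 of the 6 genes, beside 4.91% of all genes. Every RB array lay above every control array for 6 of the 6 genes, beside 4.85% of all genes, and every RB plus SMYD2 array lay above every SMYD2 array for 4 of 6, beside 5.44%. The members were chosen on these comparisons, so these counts describe the choice. RB against SMYD2, in which both groups were transfected, gave differences of 1.44 for CRYBA2, 1.23 for ENTPD3, 1.23 for PTGES, 1.59 for SLC16A4, 1.14 for IGDCC4 and 1.31 for LRRC15. That comparison shares the RB arrays with RB against control and the SMYD2 arrays with RB plus SMYD2 against SMYD2, so it is no separate evidence. In all 3 comparisons each of the 6 genes was higher in 4 of 4 same-numbered pairs.

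**Figure D3:**
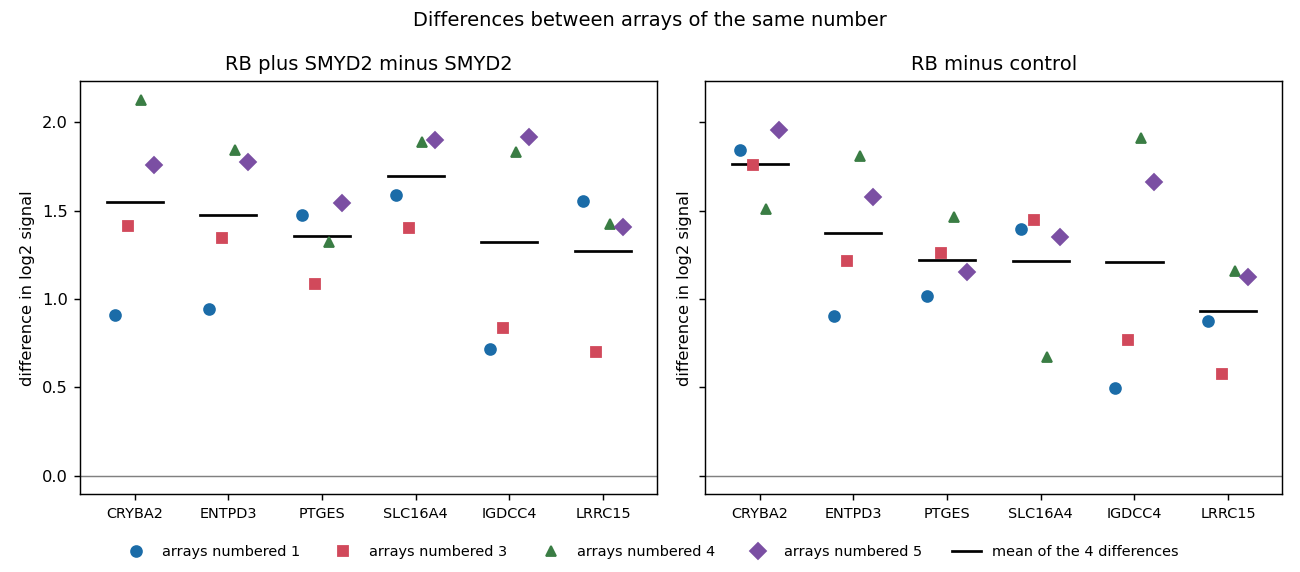
Difference in log2 signal between arrays of the same number for each gene, RB plus SMYD2 minus SMYD2 on the left and RB minus control on the right, with 4 points a gene and a line at their mean. All points are above 0; for IGDCC4 the arrays numbered 1 and 3 give 0.50 and 0.77 in RB minus control, and the arrays numbered 4 and 5 give 1.91 and 1.66.

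The 6 genes differed in how their spread changed between arrays. The pooled SD with RB and without it was 0.13 and 0.58 for IGDCC4, 0.10 and 0.40 for LRRC15, 0.34 and 0.65 for ENTPD3 and 0.55 and 0.74 for CRYBA2. For SLC16A4 it was 0.32 and 0.38, and for PTGES 0.19 and 0.17. No test of these spreads was made, since the groups were those that chose the genes. The spread without RB followed the array number: array 1 was high for CRYBA2 and ENTPD3, arrays 1 and 3 for IGDCC4 and array 3 for LRRC15. The 3′ to 5′ signal difference of the ACTB control probe sets, which grows as RNA degrades, was 3.53 on SMYD2 array 1, 2.46 on control array 1 and 0.54 to 1.63 on the other 14 arrays. For the GAPDH control probe sets it was 0.16 on SMYD2 array 1, 0.06 on control array 1 and -0.01 to 0.10 on the other 14. The part of RNA quality in these values was not tested. Without the 4 arrays numbered 1, RB exceeded control by 1.74 ± 0.17 for CRYBA2, 1.53 ± 0.13 for ENTPD3, 1.29 ± 0.10 for PTGES, 1.15 ± 0.25 for SLC16A4, 1.45 ± 0.23 for IGDCC4 and 0.95 ± 0.20 for LRRC15.

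The deviations of the arrays from their group means did not move together for all 6 genes. Over the 16 arrays they correlated at 0.89 for CRYBA2 with ENTPD3, 0.82 for ENTPD3 with PTGES, 0.74 for ENTPD3 with IGDCC4 and 0.72 for CRYBA2 with PTGES. LRRC15 ran the other way from CRYBA2, at -0.49, and from ENTPD3, at -0.34. These values share the arrays, their numbers and their normalization, and they are given without a test.

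The pooled SMYD2 effect, the mean of the differences made by SMYD2 with and without RB, is the comparison that does not draw on the RB differences by which the genes were chosen. In it limma called 0 of the 6 members and 0 of all genes (0%), and 898 genes (4.54%) had an unadjusted p under 0.05. The difference was 0.22 for CRYBA2 (95% interval -0.37 to 0.80), 0.20 for ENTPD3 (-0.27 to 0.67), 0.06 for PTGES (-0.13 to 0.24), -0.14 for SLC16A4 (-0.46 to 0.19), 0.13 for IGDCC4 (-0.25 to 0.51) and -0.21 for LRRC15 (-0.48 to 0.07). Each had a limma adjusted p of 0.966. The intervals are narrow for PTGES and allow a difference of 0.80 for CRYBA2, so a missing call does not show equal levels. These intervals do not use the array number. With it as a block the SE was 0.09 for LRRC15 and 0.10 for CRYBA2, against 0.13 and 0.28 without it. The smallest limma adjusted p with the block was 0.692, for LRRC15.

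SMYD2 against control shares the control arrays with the choice of genes, and RB plus SMYD2 against RB shares the RB arrays. Each had 0 genes called (0%), with 572 (2.89%) and 856 (4.33%) at an unadjusted p under 0.05. SLC16A4 differed by -0.38 in SMYD2 against control (95% interval -0.84 to 0.08), lower in 4 of 4 same-numbered pairs (two-sided exact permutation p = 0.171, limma adjusted p = 0.991). Its pairs were uneven, from -0.08 on arrays 3 to -1.06 on arrays 4. With 1 array left out its difference ran from -0.54 (without control array 5) to -0.22 (without SMYD2 array 4). LRRC15 also differed by -0.38 (-0.76 to 0.01), lower in 4 of 4 pairs (two-sided exact permutation p = 0.229, limma adjusted p = 0.991). The LRRC15 pairs ran from -0.16 on arrays 3 to -0.79 on arrays 1. Leaving out 1 array gave -0.60 (without SMYD2 array 3) to -0.23 (without control array 3), and -0.23 without SMYD2 array 1. Both groups overlapped, and 4 arrays against 4 can reach no exact p below 0.0286. Neither the intervals nor the permutation use the array number. With it as a block the SE was 0.14 for SLC16A4 and 0.13 for LRRC15, against 0.22 and 0.18 without it (limma adjusted p = 0.834 for each with the block). CRYBA2 differed by 0.32, ENTPD3 by 0.15 and IGDCC4 by 0.07, each higher in 3 of 4 same-numbered pairs, and PTGES differed by -0.01. Without SMYD2 array 1 alone the values were -0.11 for CRYBA2, -0.19 for ENTPD3 and -0.11 for IGDCC4, and without all 4 arrays numbered 1 they were 0.15, 0.10 and 0.13.

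With RB present, SMYD2 made a difference of 0.11 for CRYBA2, 0.25 for ENTPD3, 0.13 for PTGES, 0.10 for SLC16A4, 0.19 for IGDCC4 and -0.04 for LRRC15 in RB plus SMYD2 against RB (limma adjusted p = 1 for each; two-sided exact permutation p from 0.114 for IGDCC4 to 0.743 for CRYBA2). ENTPD3 and IGDCC4 were higher in 4 of 4 same-numbered pairs, and the groups overlapped. The RB1 probe set itself read 0.97 ± 0.31 higher with RB plus SMYD2 than with RB, in 4 of 4 pairs (limma adjusted p = 0.88); the part of this unequal RB1 signal in the members' values was not tested. The order of the group means from high to low was RB plus SMYD2, RB, SMYD2 and control for CRYBA2, ENTPD3 and IGDCC4. It was RB plus SMYD2, RB, control and SMYD2 for PTGES and SLC16A4, and RB, RB plus SMYD2, control and SMYD2 for LRRC15. The 2 groups with RB overlapped for each gene, as did the 2 groups without it.

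The interaction of RB and SMYD2, the RB difference with SMYD2 minus that without it, was 0.48 for SLC16A4 (95% interval -0.17 to 1.13), 0.34 for LRRC15 (-0.21 to 0.88), 0.13 for PTGES, 0.11 for IGDCC4, 0.10 for ENTPD3 and -0.22 for CRYBA2 (limma adjusted p = 1 for each). This value subtracts the RB against control difference, so choosing genes for a large difference there pulls it down. Choosing them for a large RB plus SMYD2 against SMYD2 difference pushes it up. The choice may have used both, so the direction of its effect on the interaction is not known. With the array number as a block the SE of the interaction was 0.19 for SLC16A4 and 0.18 for LRRC15 (limma adjusted p = 0.993 for each). With 1 array left out the SLC16A4 value ran from 0.32 (without SMYD2 array 4) to 0.65 (without control array 5). The LRRC15 value ran from 0.19 (without control array 3) to 0.56 (without SMYD2 array 3). Of all genes 0 were called (0%), and 582 (2.94%) had an unadjusted p under 0.05.

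**Figure D4:**
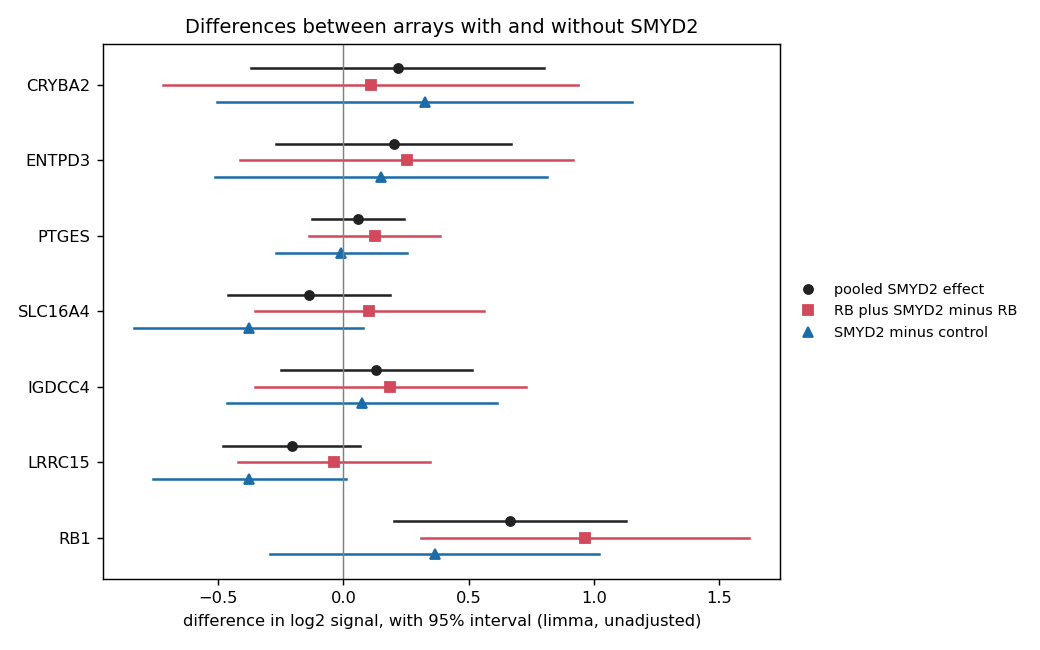
Difference in log2 signal in the pooled SMYD2 effect, RB plus SMYD2 minus RB and SMYD2 minus control for the 6 genes and RB1, with unadjusted 95% intervals from limma. In this fit, which does not use the array number, the intervals of the 6 genes all include 0, and that of LRRC15 in SMYD2 minus control ends at 0.01.

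The relatives of each gene were read from lists of family and pathway members, to see whether the family moved with it. In the prostaglandin list 0 of 21 other genes were called in either direction in RB against control or in RB plus SMYD2 against SMYD2, with medians of 0.005 and -0.01. PLA2G4A, the cytosolic phospholipase that frees arachidonic acid, differed by 0.30 ± 0.10 (adjusted p = 0.138) and PTGER2, a receptor for prostaglandin E, by -0.19 ± 0.21 in RB against control. Among 16 other genes named as crystallins 0 were called in either comparison. Their differences in RB against control lay between -0.19 for CRYBB2, a beta-crystallin, and 0.15 for CRYL1, a dehydrogenase. This list goes by gene name, so not all of the 16 are relatives of CRYBA2.

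Of 22 other ectonucleotidases, purine receptors and related genes with a value, 1 rose in RB against control and 0 in RB plus SMYD2 against SMYD2, beside 1.24% and 2.94% of all genes called higher. ENTPD4, an intracellular relative of ENTPD3, rose by 0.32 ± 0.07 in RB against control (9.33 ± 0.06 with RB against 9.00 ± 0.02 in control, limma adjusted p = 0.0237), and missed the threshold without control array 4 or 5 or without any 1 of the 4 RB arrays (adjusted p up to 0.0778). It also missed with the probe set of largest variance, with the mean of its probe sets and with every probe set tested. With the array number as a block, which called 3.61% and 6.62% of all genes higher, 2 and 4 genes rose, among them ENTPD4 and ENPP2 in both, and ENPP3 (adjusted p = 0.0442) and P2RX4 (0.00836) in RB plus SMYD2 against SMYD2. ENPP2, the secreted phospholipase autotaxin, differed by 0.75 ± 0.25 (adjusted p = 0.142, and 0.00742 with the block) and 0.74 ± 0.25 (adjusted p = 0.089, and 0.00428 with the block). It passed in both without control array 1 or without SMYD2 array 1, and without all arrays numbered 1 (adjusted p = 0.00979 and 0.00435).

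The SLC16 list, with partners of the carriers, had a value for 11 of its 18 genes, and of the 10 besides SLC16A4, 0 rose in either comparison. SLC16A10, a carrier of aromatic amino acids, fell by 0.35 ± 0.09 in RB plus SMYD2 against SMYD2 (adjusted p = 0.0291, and up to 0.0868 without SMYD2 array 4 or 5 or RB plus SMYD2 array 1, 3 or 4) and differed by -0.33 ± 0.09 in RB against control (adjusted p = 0.075, and 0.00891 with the block). Of 15 other DCC and neogenin receptors and ligands, 0 rose in RB against control and 1 in RB plus SMYD2 against SMYD2, beside 1.24% and 2.94% of all genes; with the block 1 and 2 did, beside 3.61% and 6.62%. NTN4, a netrin, rose by 0.87 ± 0.19 there (8.27 ± 0.13 with RB plus SMYD2 against 7.40 ± 0.44 with SMYD2, adjusted p = 0.00882) and differed by 0.59 ± 0.19 in RB against control (adjusted p = 0.136, and 0.0251 with the block). UNC5B, a netrin receptor, differed by 0.33 ± 0.12 in RB plus SMYD2 against SMYD2 (adjusted p = 0.135, and 0.022 with the block).

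Of 18 other leucine-rich repeat proteins, 1 rose in RB against control and 2 rose in RB plus SMYD2 against SMYD2, beside 1.24% and 2.94% of all genes. With the block 5 and 4 rose, beside 3.61% and 6.62%, through LRRC17, LRRN1, FLRT2 and FLRT3 in both and LRRC8A in RB against control, and LRIG3 fell there by 0.43 (adjusted p = 0.0176, and 0.0583 without the block). LRRC17, a secreted protein known in bone as an inhibitor of osteoclast formation, rose by 0.62 ± 0.12 (adjusted p = 0.00918) and 0.92 ± 0.12 (adjusted p = 0.000124), at 11.37 ± 0.08 with RB plus SMYD2, 11.37 ± 0.11 with RB, 10.45 ± 0.30 with SMYD2 and 10.75 ± 0.17 in control. LRRN1, a neuronal membrane protein, rose by 0.64 ± 0.18 in RB plus SMYD2 against SMYD2 (adjusted p = 0.0429), a call lost in 9 of the 16 fits that left out 1 array, among them those without RB plus SMYD2 array 1, 4 or 5 or SMYD2 array 3 or 4 (adjusted p up to 0.146). Among 19 mesenchymal TGF-beta targets 0 were called in RB against control and 1 rose in RB plus SMYD2 against SMYD2, COL1A1, the other chain of type I collagen, by 0.39 ± 0.11 (adjusted p = 0.0404, and up to 0.107 without control array 4, SMYD2 array 1, 4 or 5, or any 1 of the RB plus SMYD2 arrays). Their medians were 0.15 in both comparisons, beside 0.01 over all genes, and with the block TGFBI, a matrix protein named for its induction by TGF-beta, passed in both at 0.49 ± 0.10 and 0.53 ± 0.10 (adjusted p = 0.0087 and 0.00248, against 0.796 and 0.644 without the block).

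**Figure D5:**
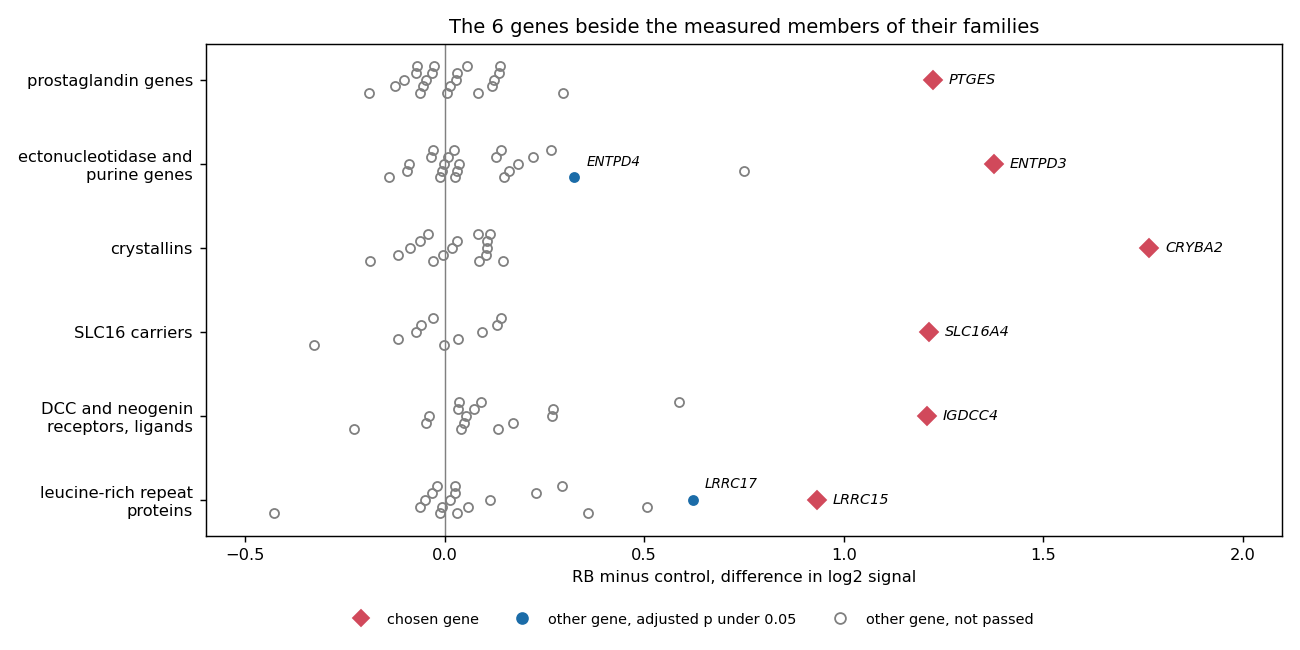
Difference in log2 signal, RB minus control, of the 6 genes (diamonds) and of the other measured genes of their family lists (circles, filled where the limma adjusted p is under 0.05). Of the other genes, ENTPD4 at 0.32 and LRRC17 at 0.62 are filled. Each chosen gene lies to the right of its listed relatives, which follows from its choice for a large RB difference.

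Genes with the most similar pattern over the 16 arrays were found by Pearson's r with each member, given here as a description, since the group differences enter it and the arrays are shared. Patterns like CRYBA2 were those of RRBP1 (r = 0.94), FILIP1L (0.94) and S100A4 (0.94), and patterns like ENTPD3 were those of FILIP1L (0.97), APBB2 (0.97) and RRBP1 (0.96), so the lists share RRBP1 and FILIP1L. PTGES was closest to H2BC21 (0.97), TP53INP1 (0.96) and CLU (0.96), and SLC16A4 to H2BC4 (0.97), H4C8 (0.94) and H1-2 (0.94), which include histone genes. IGDCC4 was closest to RGS3 (0.97), YPEL5 (0.97) and COL5A1 (0.97), and LRRC15 to LRRC17 (0.98), ARMCX2 (0.98) and EVI2A (0.96). In the deviations from group means, which leave the group differences out, the same pairs had r between 0.76 and 0.93 for 5 of the members, while those of PTGES had 0.58 for H2BC21, 0.54 for TP53INP1 and 0.40 for CLU. The r that picked these pairs holds the same deviations, so high values here partly follow from the pick. The share of all genes with such values was not counted.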

How the data were processed

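Each of the 16 arrays has a deposited log2 signal for 54675 probe sets, which the authors computed by RMA, per the submitters' processing notes (no version is named). RMA corrects the background, equalizes the distributions and summarizes each probe set; the sources used here do not state if it was run over all arrays at once. The number of arrays limits the precision. The platform annotation gave 1 gene symbol to 41097 probe sets, several to 1801 and none to 11777, and 41043 of the first matched RefSeq. The probe set with the highest mean stood for each of 19775 genes. Same-group arrays correlated at 0.981 to 0.998, so none was taken for a copy.

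Groups were compared with limma 3.58.1 in R 4.3.3 (1 mean per group over all 16 arrays, eBayes with a trend, two-sided, Benjamini-Hochberg over all genes, threshold 0.05), in 8 comparisons. ± after a difference is its SE. The members' other probe sets were fitted with all probe sets. The fit was tested on simulated data. Single genes were also compared by exact permutation over 4 against 4 arrays.

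The members and the 9 gene lists were chosen with earlier results of these data known. The text names the members, RB1 and SMYD2, for each member the 3 genes of highest r, the 5 genes on each side of LRRC15 in rank, and from each list the called genes (at most 4 by size, or the 2 largest where none was called). ENPP2, TGFBI and other genes named for a call that changed with the block were added after their values were seen. Same-numbered arrays deviated together (every r above 0.1) in all pairs of groups other than SMYD2 with RB, where the lowest was -0.06, so a fit with the array number as a block is given beside list genes whose call it changes. Alternatives covered scaling, the choice of probe set, a filter on dim genes, the samples fitted, array weights, the block and leaving out each array in turn. Figures were made with matplotlib 3.10.9.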

Additional observations from a re-analysis of the deposited data

Results flagged for a closer look

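Of 40 groups of 4 arrays tested for an array far from the other 3, 5 held such an array, and chance alone marks about 1 in 20 groups. CRYBA2 read 6.81 on SMYD2 array 1, beside 5.03 to 5.17 on the other SMYD2 arrays, and ENTPD3 read 10.24 on the same array, beside 8.81 to 8.94. The dimmer ENTPD3 probe set read 5.60 on RB plus SMYD2 array 1, beside 5.21 to 5.26, and 5.27 on control array 1, beside 4.50 to 4.60. SLC16A4 read 4.75 on control array 5, beside 5.35 to 5.45 on the other control arrays. The arrays numbered 1 thus hold 4 of the 5.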

How the results depend on the processing

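In the RB comparisons the members' differences were recomputed 634 times; 0 changed sign and 7 moved by more than 1 SD, all 7 when the probe sets of a gene were averaged. PTGES then differed by 1.00 in RB against control and 1.09 in the pooled RB effect, ENTPD3 by 0.92 in RB plus SMYD2 against SMYD2, and LRRC15 by 0.46, 0.71, 0.69 and 0.59 in RB against control, RB plus SMYD2 against SMYD2, RB against SMYD2 and the pooled RB effect; for LRRC15 the average takes in the probe set that did not move. In the SMYD2 comparisons and the interaction 0 of 628 values passed the threshold and 31 changed sign, for differences of at most 0.32.

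Counts of called genes moved more. They were 585 in RB against control, 1422 in RB plus SMYD2 against SMYD2, 642 in RB against SMYD2 and 2517 in the pooled RB effect. With array weights they were 2296, 3141, 1790 and 4714, and with the replicate block, which the pairing of array numbers allows, 1399, 2812, 1831 and 4028. With every probe set tested, 3827 of 54675 probe sets were called in the pooled RB effect, a count of probe sets and not of genes. With only the 2 groups compared, which leaves fewer arrays, 748 were called in RB plus SMYD2 against SMYD2 and 193 in RB against SMYD2. Without the 4 arrays numbered 1, a setting chosen after seeing the data, 1089 were called in RB against control and 1029 in RB against SMYD2. Leaving out 1 array gave 286 (without RB array 4) to 984 (without SMYD2 array 1) in RB against control, 859 (without RB plus SMYD2 array 4) to 1753 in RB plus SMYD2 against SMYD2, and 304 (without RB array 4) to 888 in RB against SMYD2. Leaving out control array 4 or 5 or RB array 5, RB plus SMYD2 array 5, and RB array 3 or 5 also moved these counts by over 1.5 times. In RB plus SMYD2 against RB, the pooled SMYD2 effect and the interaction, 1 gene instead of 0 was called both with every probe set tested and with the probe set of largest variance. Other causes were not tested. The blocked fit changed no call on the members. Of 972 recounts over the lists, 107 moved by over 1.5 times. Without the arrays numbered 1, 2 ectonucleotidase genes and 2 leucine-rich repeat genes rose in RB against control, and in RB plus SMYD2 against SMYD2 0 SLC16 genes and 0 TGF-beta targets were called, while 2 netrin receptors or ligands and 1 leucine-rich repeat gene rose. CRYBA2 and SLC16A4, with mean signals of 6.18 and 5.79, drop out where genes under the median of 6.88 are removed.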

Other observations

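The gene called in comparisons with SMYD2 under those settings was MAP2K5, a kinase of the MAP kinase cascade, through a single probe set (211371_at), chosen for mention after its values were seen. Over all probe sets it differed by -2.51 ± 0.16 (SE) in RB plus SMYD2 against RB (limma adjusted p = 9.68e-07), by -1.48 ± 0.11 in the pooled SMYD2 effect and by -2.06 ± 0.23 in the interaction.

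Interferon-stimulated genes answer to foreign nucleic acid. The mean signal of the 12 genes was 7.22 ± 0.02 with RB plus SMYD2, 7.28 ± 0.06 with RB, 7.20 ± 0.02 with SMYD2 and 7.21 ± 0.05 in control (SD, n = 4 each). Among them 0 were called in RB against control, and 1 was called higher in RB plus SMYD2 against SMYD2, IFNB1, the interferon beta gene itself. It differed by 0.35 ± 0.08 (limma adjusted p = 0.0103), at 4.57 ± 0.09 with RB plus SMYD2 against 4.22 ± 0.12 with SMYD2. Both IFNB1 levels lay below the array medians of 5.59 to 5.64, where signals may be background. Single genes differed by -0.23 to 0.42 in RB against control. IFI6 differed by 0.35 ± 0.12 there (adjusted p = 0.156, 0.024 with the array number as a block and 0.0116 without the arrays numbered 1) and by 0.28 ± 0.12 in RB plus SMYD2 against SMYD2 (adjusted p = 0.193, and 0.0472 with the block).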
